A study of Homo sapiens with 9 samples.

Results

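The insulin-like growth factor (IGF) genes described here are the 7 IGF-binding proteins IGFBP1 to IGFBP7, the receptor IGF1R and the adaptors IRS1 and IRS2. Their probes were found by gene symbol in the platform annotation, the genes having been chosen with earlier results of these data known, and they are 10 of the 20045 genes with a probe of a single symbol. They are covered by 12 of the 47323 probes, with 2 probes each for IGFBP3 and IGFBP5. The cells were of the human line MDA-MB231, an established breast cancer line of the basal, mesenchymal-like kind, and single-colour Illumina bead arrays measured their transcripts. There were 3 groups of 3 arrays: cells carrying the empty vector, cells overexpressing RAI2 (a partner of the CtBP corepressors, named for its induction by retinoic acid), and cells overexpressing a form labelled RAI2-4A. What 4A stands for is not given in the labels. All 3 groups, the vector control included, had been exposed to retrovirus from ampho-type packaging cells and put under 2 µg/ml puromycin from 24 h later for 4 days. The labels name neither the promoter of the constructs nor single clones, and do not say whether replicates were separate cultures. P-values therefore measure only the spread between these arrays, which may be technical.

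IGF1 and IGF2 act through IGF1R, a receptor tyrosine kinase that phosphorylates the adaptors IRS1 and IRS2, which in turn recruit PI3-kinase and start AKT signalling. IGF-binding proteins are secreted carriers that hold the ligands away from the receptor, prolong their life in blood and tissue, and release them when proteases such as PAPPA cleave the carrier. In breast cancer cells the axis is best known for growth and survival signals, and IGFBP3 also for growth-inhibiting effects that do not need IGF binding.

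The transgene transcript checked the labels. The RAI2 probe read 90.1 ± 4.97 (SD, n = 3) in vector cells and was above background on 0 of 3 arrays. Its mean was 598 ± 36.8 in cells with RAI2 and 1059 ± 101 in cells with RAI2-4A (SD, n = 3 each). The transcript was thus higher in RAI2-4A than in RAI2 cells, by a log2 difference of 0.85 (RAI2 minus RAI2-4A -0.85, SE 0.11, limma adjusted p = 0.00278), and any comparison of those groups also compares different amounts of transgene RNA. Of 8 genes fixed as MDA-MB231 markers, 7 were above background on all 9 arrays, among them VIM, CD44 and AXL, and KRT18 was so on 2. Of 8 luminal genes, ESR1, PGR and FOXA1 were above background on 0 arrays. EPCAM, ERBB3 and KRT19 were above it on all 9 arrays, and CDH1 and GATA3 on 8 each. Of these, KRT19 read 2457 to 4785 and EPCAM 438 to 622 on its brightest probe. CDH1 at 101 to 122, GATA3 at 102 to 139 and ERBB3 at 106 to 133 on its brightest probe were near background. Of the leukocyte, endothelial and packaging-cell markers 0 were above background on all 9 arrays, and of 4 fibroblast markers LUM and PDGFRB were. Arrays correlated at Pearson's r of 0.971 to 0.994 across probes, and 20099 to 22684 probes per array were above background, at threshold intensities of 99.8 to 104.0. Replicate 1 of vector and replicate 2 of both RAI2 and RAI2-4A stood apart from the other arrays of their groups, and values without them are given below for the members well above background. The arrays measure bulk RNA, in which fewer cells of a type and less RNA per cell cannot be told apart.

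IGFBP3 and IGFBP6 had the widest spread of group means among the members above background on all arrays, so the 250 bases before their annotated starts are shown here, from RefSeq on GRCh38.p14, 5′ to 3′ on the gene's strand. RefSeq windows were matched for 8 of the 10 members, all but IGFBP1 and IGFBP7. Capitals mark CACCTG, an E-box, and GGGCGG, a GC box, on either strand, so that CAGGTG and CCGCCC are their reverse complements. The motifs were chosen with the expression values known. IGFBP3 lies on the minus strand of chromosome 7, next to IGFBP1 in RefSeq's gene order, and its window is chr7:45921273-45921522. IGFBP6 lies on the plus strand of chromosome 12, and its window is chr12:53097417-53097666.
IGFBP3: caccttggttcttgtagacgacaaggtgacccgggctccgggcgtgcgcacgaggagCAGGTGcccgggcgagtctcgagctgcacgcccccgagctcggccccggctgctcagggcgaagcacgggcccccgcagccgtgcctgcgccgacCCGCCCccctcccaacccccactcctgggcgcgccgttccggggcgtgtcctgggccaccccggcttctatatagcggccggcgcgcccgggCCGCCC
IGFBP6: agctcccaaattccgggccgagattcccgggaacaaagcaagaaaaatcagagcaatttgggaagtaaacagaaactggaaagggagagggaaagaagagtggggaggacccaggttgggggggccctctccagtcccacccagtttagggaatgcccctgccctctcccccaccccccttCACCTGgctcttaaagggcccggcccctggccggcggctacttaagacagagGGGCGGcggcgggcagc
The IGFBP3 window is 76% G or C, against a median of 58% over 35116 such windows, and the IGFBP6 window is 61.2% G or C. Each holds 1 E-box, which begins 193 bases before the start in IGFBP3, on the strand opposite to the gene, and 69 bases before it in IGFBP6. IGFBP3 holds 2 GC boxes and IGFBP6 holds 1. Among all windows, 17.5% hold CACCTG and 42.6% hold GGGCGG. Neither AGGTCA, a nuclear receptor half-site, nor the TATA-type sequence TATAAA was found in these 2 windows, and 12.1% and 10.7% of all windows hold them. Only these exact letters and their reverse complements were searched for. The variant tatata, which the IGFBP3 window holds near its 3′ end, was therefore not counted. A match describes letters in the window and is not a measured binding site.

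After removal of dim probes, 12422 genes were tested in each of 3 comparisons, 9 of the 10 members among them. With p-values adjusted over all genes, 0 of 9 members passed the threshold of 0.05 for RAI2 against vector, where 0.419% of all genes did. For RAI2-4A against vector 0 of 9 passed, against 0.0886% of all genes, and for RAI2 against RAI2-4A 0 of 9 passed, against 0.378%. At an unadjusted p under 0.05 there was 1 member for RAI2 against vector (IGFBP3), none for RAI2-4A against vector, and 3 for RAI2 against RAI2-4A (IGFBP1, IGFBP3 and IGFBP6). The shares of all genes at that level were 5.9%, 3.99% and 4.84% in the same order. The 2 comparisons with RAI2 cells share the RAI2 arrays, and those with vector cells share the vector arrays, so they are not independent of each other.

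Arrays of the compared groups did not overlap, with the first-named group higher, for 2 members in RAI2 against vector (IGFBP1 and IGFBP3). The same held for 1 in RAI2-4A against vector (IRS2) and for 3 in RAI2 against RAI2-4A (IGFBP1, IGFBP3 and IGFBP6). Over all genes tested, 6.27%, 4.87% and 5.82% were so arranged. In the opposite direction 0 members were, against 3.78%, 3.12% and 5.51% of all genes. The median log2 difference of the 9 members was 0.09 for RAI2 against vector, -0.07 for RAI2-4A against vector and 0.05 for RAI2 against RAI2-4A, and that of all genes was 0.02, 0.02 and 0.0003. Among the 9 estimates, 5, 2 and 6 were above 0 in that order.

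**Figure D1:**
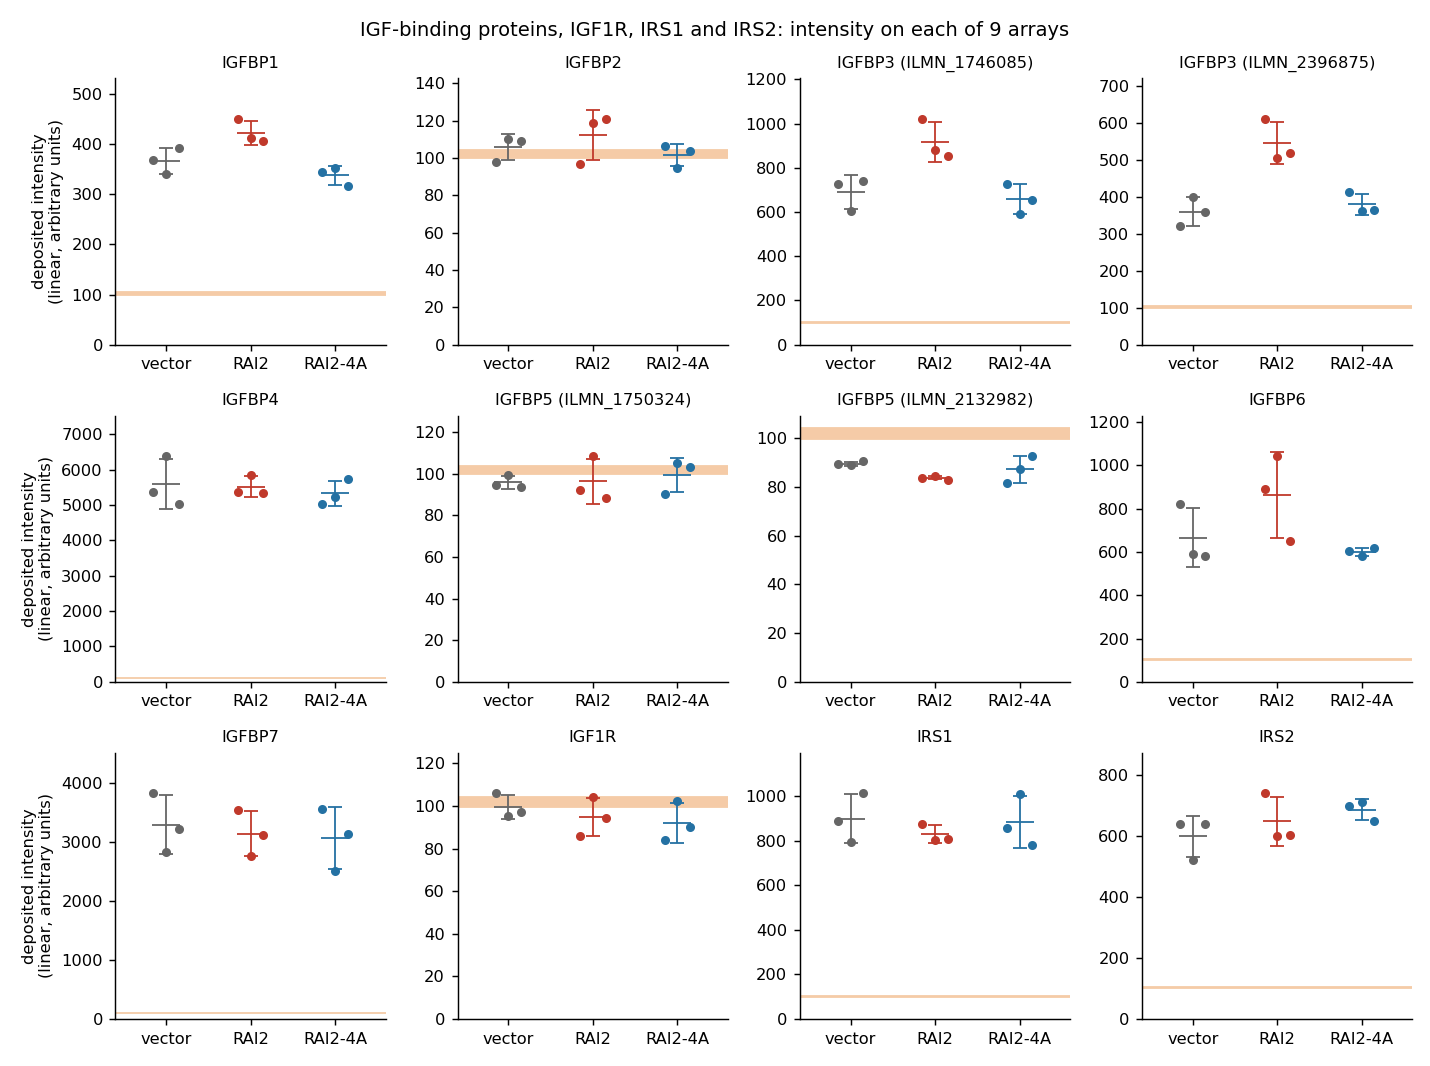
Deposited intensity (linear, arbitrary units, axes from 0) of the 12 member probes on each of 9 arrays, with points for arrays in the order replicate 1, 2, 3, bars for the group mean and whiskers for the SD; the shaded band spans the background thresholds of the arrays, 99.8 to 104.0. IGFBP1, IGFBP3 and IGFBP6 have their highest group mean in RAI2 cells, while IGFBP2, IGFBP5 and IGF1R lie in or beside the band.

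IGFBP3, the main carrier of IGFs in serum, had the clearest separation of RAI2 cells from both other groups. On its brighter probe (ILMN_1746085) the intensities of replicates 1, 2 and 3 were 728, 604 and 739 in vector cells, 1020.4, 879 and 852 in RAI2 cells, and 726, 590 and 654 in RAI2-4A cells. All 3 RAI2 arrays were above all 6 other arrays, and the ranges of vector and RAI2-4A cells overlapped. The means were 690 ± 75.3, 917 ± 90.4 and 657 ± 67.9 (SD, n = 3 each). RAI2 exceeded vector by a log2 difference of 0.42 (SE 0.13, 95% interval 0.15 to 0.69), a ratio of mean intensities of 1.33. The gene ranked 180th by p among 12422 and did not pass, with a limma adjusted p of 0.334. Summed leukocyte marker intensity was 281 to 283 on RAI2, 275 to 280.1 on vector and 253 to 299 on RAI2-4A arrays. PTPRC and CD3E were above background on 0 of 9 arrays. The other leukocyte marker with a probe, ITGAM, read 91.9 to 109.8 over the 9 arrays. ITGAM was above background on 3 RAI2, 1 vector and 2 RAI2-4A arrays.

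Against RAI2-4A the same probe was higher in RAI2 cells by 0.50 log2 units (SE 0.13, 95% interval 0.23 to 0.77), which ranked 94th and also did not pass (limma adjusted p = 0.205). RAI2-4A and vector differed by -0.07 (95% interval -0.34 to 0.20, adjusted p = 0.994). Deviations from the group means ran together in RAI2 and RAI2-4A arrays of 1 number, at residual correlations of 0.445, 0.437 and 0.231 across genes. Among pairs with different numbers, vector 1 and RAI2-4A 2 reached 0.538. In a fit of these 6 arrays with the replicate number as a block, the IGFBP3 difference was 0.50 with an SE of 0.09 (95% interval 0.30 to 0.69) and passed, with a limma adjusted p of 0.0315. In that fit 0.789% of all genes passed and IGFBP3 was the only member among them. IGFBP1 and IGFBP6 had adjusted p-values of 0.158 and 0.185 in it. The summed intensity of the 4 fibroblast markers was 518 to 580 on RAI2-4A arrays. It was 461 to 507 on RAI2 arrays and 484 to 501 on vector arrays. Of the 4, only PDGFRB separated RAI2-4A from RAI2 arrays. PDGFRB read 181 to 198 in RAI2-4A, 136 to 145 in RAI2 and 147 to 166 in vector cells. LUM read 143 to 179 in RAI2-4A and 121 to 167 in RAI2 cells, so those groups overlapped. COL1A1 and DCN also overlapped, and were above background on 4 and 2 arrays. The DCN probe in the sum read 82.1 to 98.2 in RAI2-4A and 85.8 to 116 in RAI2 cells. The part of these markers in the IGFBP3 result was not tested. The blocked fit had 2 residual degrees of freedom, and the labels do not say that a number marks a shared culture or day.

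The other IGFBP3 probe (ILMN_2396875) is designed to a second transcript record of the gene and was read separately. Its intensities were 322, 400 and 359 in vector cells, 612, 507 and 521 in RAI2 cells, and 413, 363 and 365 in RAI2-4A cells. Again all 3 RAI2 arrays were above the other 6. When every kept probe was tested on its own, this probe was higher in RAI2 than in vector cells by 0.63 log2 units (SE 0.12, limma adjusted p = 0.0936). It was higher in RAI2 than in RAI2-4A cells by 0.55 (SE 0.12, adjusted p = 0.176), and RAI2-4A differed from vector by 0.08 (adjusted p = 0.993). Both probes thus had the RAI2 arrays above the other 6, and neither passed the threshold in the fit of all 9 arrays. The order of the vector arrays differed between the probes, as did the sign of RAI2-4A minus vector. Probes of 1 gene read the same RNA samples and are not replicates of each other.

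Without the 3 arrays that stood apart, the IGFBP3 difference on the brighter probe was 0.50 for RAI2 against vector (adjusted p = 0.241) and 0.45 for RAI2 against RAI2-4A (adjusted p = 0.385). With single arrays left out or other processing, it ranged from 0.33 to 0.53 for RAI2 against vector and from 0.42 to 0.58 for RAI2 against RAI2-4A.

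IGFBP6, which binds IGF2 in preference to IGF1, varied more between replicates. Its intensities were 824, 592 and 583 in vector cells, 893, 1043 and 649 in RAI2 cells, and 605, 582 and 617 in RAI2-4A cells. RAI2 replicate 3 lay below vector replicate 1, so those groups overlapped, while all 3 RAI2 arrays were above all 3 RAI2-4A arrays. The means were 666 ± 137, 862 ± 199 and 601 ± 17.8 (SD, n = 3 each), and RAI2-4A cells had the smallest spread.

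RAI2 minus vector was 0.37 log2 units for IGFBP6 (SE 0.17, 95% interval -0.0014 to 0.75, limma adjusted p = 0.848). RAI2 minus RAI2-4A was 0.51 (SE 0.17, 95% interval 0.13 to 0.88, limma adjusted p = 0.624), and RAI2-4A minus vector was -0.13 (95% interval -0.51 to 0.24). None passed. The size rested on single arrays: RAI2 minus vector was 0.22 without RAI2 replicate 2 and 0.57 without RAI2 replicate 3. With the 3 arrays apart from the rest left out, RAI2 minus RAI2-4A was 0.33 and RAI2 minus vector 0.39.

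IGFBP1, a carrier made mainly by liver and decidua and controlled by insulin, had the same order of group means. Its intensities were 367.5, 341.1 and 392.3 in vector cells, 450.0, 411 and 407 in RAI2 cells, and 344.5, 352.0 and 316.5 in RAI2-4A cells. RAI2 cells did not overlap with either other group. RAI2 minus vector was 0.22 log2 units (SE 0.10, 95% interval -0.0095 to 0.44, limma adjusted p = 0.878), and RAI2 minus RAI2-4A was 0.35 (SE 0.10, 95% interval 0.12 to 0.57, adjusted p = 0.457). Without the 3 arrays that stood apart these were 0.24 and 0.40. Vector and RAI2-4A, the neighbours in the order, overlapped and differed by -0.13 (RAI2-4A minus vector, 95% interval -0.36 to 0.10).

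**Figure D2:**
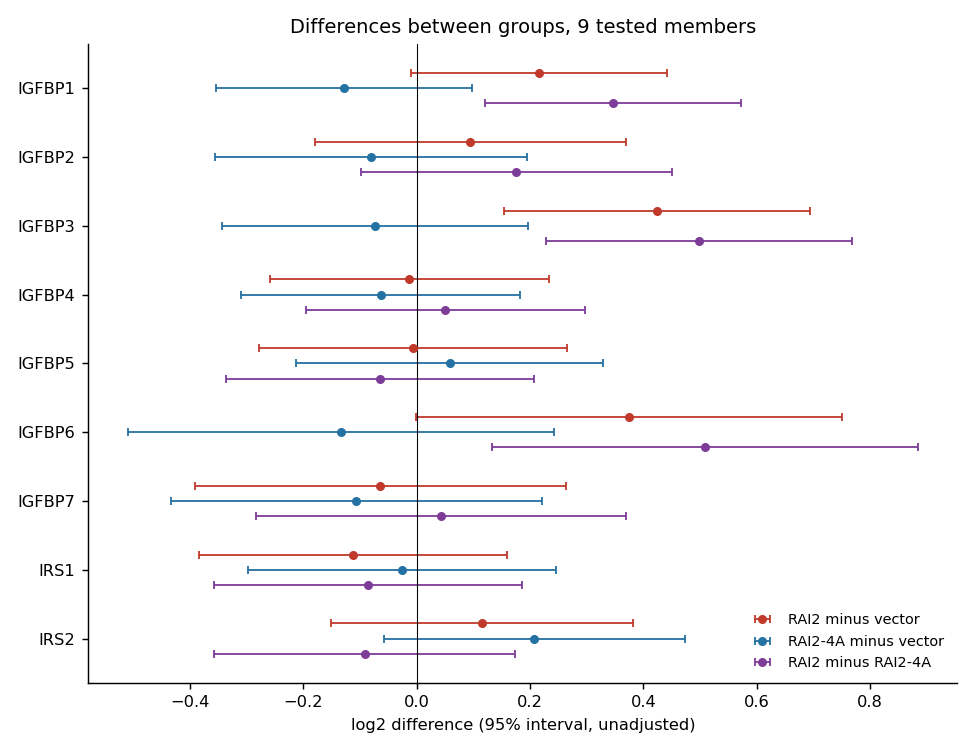
Estimated log2 difference (points) and unadjusted 95% interval (whiskers) of the 9 tested members for RAI2 minus vector, RAI2-4A minus vector and RAI2 minus RAI2-4A. Intervals that exclude 0 are those of IGFBP3 in both RAI2 comparisons and of IGFBP1 and IGFBP6 for RAI2 minus RAI2-4A; after adjustment over all genes none of these passed.

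IGFBP4, a carrier that inhibits IGF action until PAPPA cleaves it, did not separate the groups. Its intensities were 5368, 6382 and 5030.2 in vector cells, 5355, 5856 and 5350.2 in RAI2 cells, and 5043, 5226 and 5735 in RAI2-4A cells, with overlap in all 3 comparisons. The log2 difference was -0.01 for RAI2 against vector (95% interval -0.26 to 0.23), -0.06 for RAI2-4A against vector and 0.05 for RAI2 against RAI2-4A. The first interval takes in differences of either sign, so equality was not shown. Without the 3 arrays that stood apart the differences were -0.08, -0.08 and -0.01.

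IGFBP7, a related secreted protein that binds IGFs only weakly and binds insulin, showed more spread between replicate numbers than between groups. Its intensities were 3818, 2826 and 3214 in vector cells, 3529, 2763 and 3115 in RAI2 cells, and 3551, 2510.1 and 3123 in RAI2-4A cells. Replicate 1 was highest and replicate 2 lowest in each of the 3 groups. Of all genes tested, 2.72% had 1 order of replicate numbers in all 3 groups. The log2 differences were -0.06 (95% interval -0.39 to 0.26), -0.11 and 0.04 for RAI2 against vector, RAI2-4A against vector and RAI2 against RAI2-4A, each with an SE of 0.15. None of these has a settled sign: without the 3 arrays that stood apart they were 0.14, 0.14 and -0.01, and without vector replicate 1 alone the first was 0.05.

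Replicate number accounted for 96.9% of the within-group sum of squares of IGFBP7 on the log2 scale, against a median of 29.8% over all genes. For IGFBP3 it was 75.3% and for IGFBP6 37.0%. With replicate number as a block over all 9 arrays, the SE of IGFBP7 was 0.10 and its estimates were the same. Vector arrays did not deviate together with same-numbered arrays in general, with residual correlations of -0.434 to 0.197 over the 6 such pairs.

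**Figure D3:**
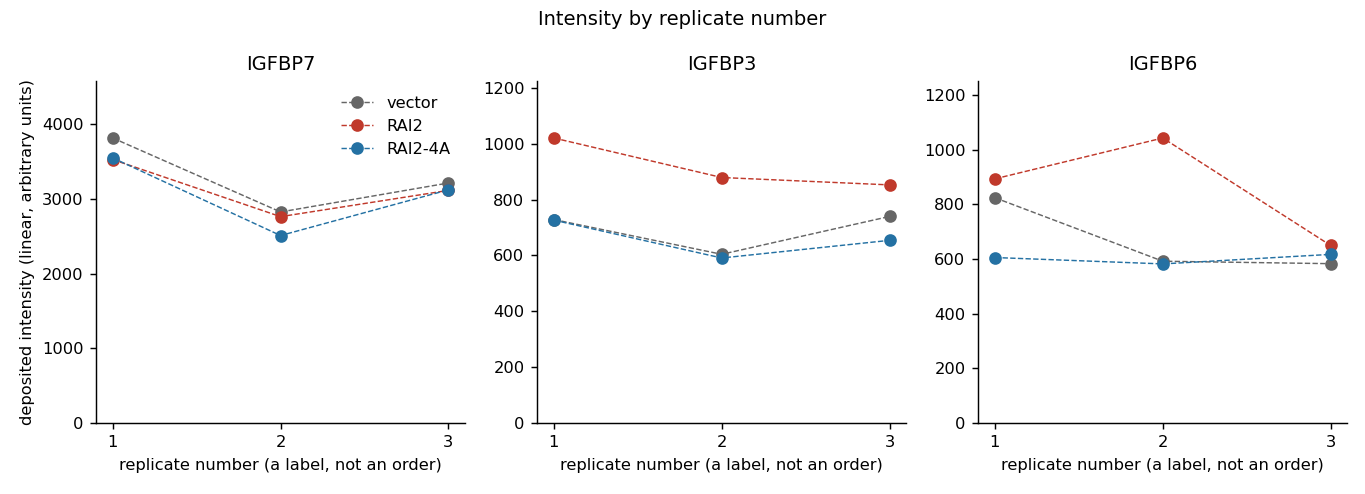
Deposited intensity (linear, arbitrary units, axes from 0) of IGFBP7, IGFBP3 and IGFBP6 against replicate number, with dashed lines joining the arrays of 1 group. For IGFBP7 the 3 groups share the order of numbers, from 3818, 3529 and 3551 for replicate 1 to 2826, 2763 and 2510.1 for replicate 2; for IGFBP3 the RAI2 line lies above both others at each number.

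IGFBP2 and IGFBP5, neighbours on chromosome 2 in RefSeq's gene order, were near background. IGFBP2, a carrier abundant in fetal life, read 97.9, 110.0 and 109 in vector cells, 96.9, 119 and 121 in RAI2 cells, and 107, 94.7 and 103 in RAI2-4A cells, and was above background on 2 of 3 arrays in each group. Its log2 differences were 0.09 (95% interval -0.18 to 0.37), -0.08 and 0.18 (95% interval -0.10 to 0.45) for RAI2 against vector, RAI2-4A against vector and RAI2 against RAI2-4A. IGFBP5, a carrier that binds extracellular matrix, read 88.2 to 109 on its brighter probe over the 9 arrays and was above background on 0 vector, 1 RAI2 and 2 RAI2-4A arrays. Its second probe was above background on 0 of 9 arrays. The estimates of IGFBP2 and IGFBP5 are those of probes at or near background and are not read as fold changes.

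The receptor IGF1R, through which both IGFs signal, was not well above background on most arrays. Its probe read 106, 95.4 and 97.1 in vector cells, 86.0, 104 and 94.5 in RAI2 cells, and 84.0, 102 and 89.9 in RAI2-4A cells. It was above background on 2 of 9 arrays, vector replicate 1 and RAI2 replicate 2, and was therefore not tested. Both of these are among the 3 arrays that stood apart. A dim probe does not show that the transcript is absent.

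The adaptor IRS1 was measured well above background on all 9 arrays. Its intensities were 889, 793 and 1013 in vector cells, 877, 803 and 809 in RAI2 cells, and 859, 1009 and 782 in RAI2-4A cells, with overlap in every comparison. RAI2 minus vector was -0.11 log2 units (95% interval -0.38 to 0.16), RAI2-4A minus vector -0.03 and RAI2 minus RAI2-4A -0.09. Without the 3 arrays that stood apart they were -0.09, -0.13 and 0.04.

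IRS2, the adaptor that predominates in insulin signalling in liver, had its highest group mean in RAI2-4A cells. Its intensities were 638, 521 and 637 in vector cells, 739, 599.6 and 602 in RAI2 cells, and 698, 711 and 647 in RAI2-4A cells. All 3 RAI2-4A arrays were above all 3 vector arrays, and RAI2 cells overlapped with both. RAI2-4A minus vector was 0.21 log2 units (SE 0.12, 95% interval -0.06 to 0.47, limma adjusted p = 0.994). RAI2 minus vector was 0.12 (95% interval -0.15 to 0.38) and RAI2 minus RAI2-4A was -0.09. Single arrays moved these IRS2 values: without vector replicate 2, RAI2-4A minus vector was 0.11 and RAI2 minus vector 0.01, and without RAI2 replicate 1 the latter was also 0.01. Leaving out the 3 arrays apart from the rest gave 0.23 and 0.22.

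The genes whose pattern over the 9 arrays was most like that of IGFBP3 were PTPRK, STEAP2, MFSD6L, SKAP2 and LXN. Likeness was the root mean square difference between log2 values centred on each gene's own mean, over 12421 other genes. It was 0.0815 for PTPRK, 0.0847 for STEAP2, 0.102 for MFSD6L, 0.103 for SKAP2 and 0.104 for LXN, where IGFBP3's own values had a root mean square of 0.253. For IGFBP6, with a root mean square of 0.307, they were PLAU at 0.110, ACSBG1 at 0.139, CALB2 at 0.154, AKAP2 at 0.158 and the probe annotated MIR1282 at 0.159. The likeness is a description of 9 arrays that share their replicate and array effects.

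**Figure D4:**
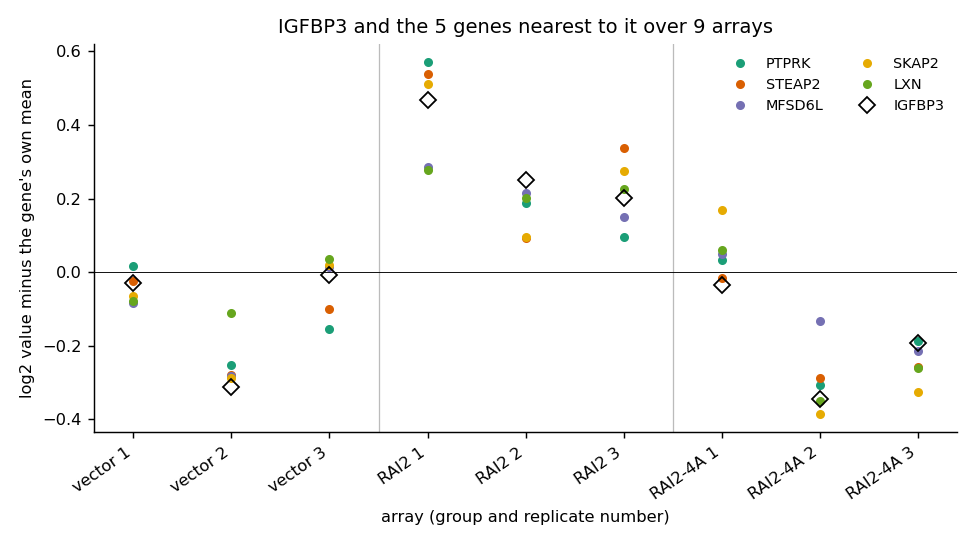
Log2 value minus the gene's own mean over 9 arrays for IGFBP3 (open diamonds) and the 5 genes nearest to it (filled points), by array. IGFBP3 lies above 0 on the 3 RAI2 arrays and below 0 on the other 6.

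The wider pathway was described with 49 further genes: ligands, receptors, adaptors and kinases, modulators (carriers, proteases and others), and negative regulators. Of these, 45 had a probe and 40 were tested. In each of the 3 comparisons 0 of 40 passed after adjustment, against 0.419%, 0.0886% and 0.378% of all genes, with lowest adjusted p-values of 0.275, 0.840 and 0.414. At an unadjusted p under 0.05, 2 were higher and 0 lower for RAI2 against vector, 2 higher and 2 lower for RAI2-4A against vector, and 2 higher and 1 lower for RAI2 against RAI2-4A. Over all genes, 5.9%, 3.99% and 4.84% reached that level in either direction. The median log2 difference of the 40 was 0.02, 0.03 and -0.01, and that of all genes was 0.02, 0.02 and 0.0003. The 6 genes described below (STC1, PAPPA, SOCS3, SOCS1, FOXO1 and IGF2R) are those with the smallest unadjusted p among genes above background on all 3 arrays of a group. The lowest estimate in both comparisons with vector was that of PIK3CB, a PI3-kinase catalytic subunit, named after its values were seen. It was -0.44 for RAI2 and -0.50 for RAI2-4A, each with an SE of 0.28, and rested on vector replicate 1. PIK3CB read 299.9 there, against 126.6 on both other vector arrays and 115 to 136 on the 6 transgene arrays. Without vector replicate 1 the PIK3CB differences were 0.03 and -0.02.

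Ligand transcripts were near background in these cells. IGF1 read 73.3 to 114 over its 2 probes and IGF2 and insulin (INS) were each above background on 3 of 9 arrays on their brightest probe. Of the receptors, INSR, the insulin receptor, was above background on 1 array. IGF2R, the mannose-6-phosphate receptor that clears IGF2 from the cell surface, was well above background. IGF2R read 1640.4, 1577 and 1566 in vector cells, 1843, 1750.3 and 1818 in RAI2 cells, and 1899, 1714 and 1885 in RAI2-4A cells. Both transgene groups were above all vector arrays, by log2 differences of 0.18 and 0.20 for RAI2 and RAI2-4A (limma adjusted p = 0.962 and 0.994), which did not pass.

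Among the modulators, STC1 (stanniocalcin 1, an inhibitor of PAPPA) read 826, 815 and 875 in vector cells, 1064, 1108 and 1148 in RAI2 cells, and 1029.9, 787 and 937 in RAI2-4A cells. All RAI2 arrays were above the other 6. RAI2 minus vector was 0.41 log2 units (SE 0.11, limma adjusted p = 0.275) and RAI2 minus RAI2-4A was 0.28 (adjusted p = 0.906), or 0.17 without the 3 arrays that stood apart. PAPPA, the protease that cleaves IGFBP4, read 182, 232 and 188 in vector cells, 222, 189 and 195 in RAI2 cells, and 158, 136 and 168 in RAI2-4A cells. All RAI2-4A arrays were below the other 6. RAI2-4A minus vector was -0.44 log2 units (SE 0.14, limma adjusted p = 0.840) and RAI2 minus RAI2-4A was 0.46 (SE 0.14, adjusted p = 0.414).

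Of the negative regulators, SOCS1 and SOCS3, inhibitors of cytokine and insulin receptor signalling, were low. SOCS1 read 102, 114 and 97.5 in vector cells, 119.5 to 121 in RAI2 cells and 121 to 124 in RAI2-4A cells. It was above background on 2 of 3 vector arrays and on all arrays of the other groups. Its log2 differences from vector were 0.25 and 0.29 (limma adjusted p = 0.738 and 0.994). They are those of a probe near background and are not read as fold changes. SOCS3 read 121, 119 and 126 in vector cells, 147, 135 and 132 in RAI2 cells, and 170, 132 and 154 in RAI2-4A cells on the probe used, and RAI2-4A minus vector was 0.37 (adjusted p = 0.994). The other SOCS3 probe read 109 to 179 in vector cells and 96.4 to 141 in RAI2-4A cells, so the probes disagreed. FOXO1, a transcription factor that AKT keeps out of the nucleus, read 146, 182 and 189 in vector cells, 142, 145 and 167 in RAI2 cells, and 186, 182 and 176 in RAI2-4A cells. All RAI2 arrays were below all RAI2-4A arrays, with a difference of -0.31 (limma adjusted p = 0.936).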

How the data were processed

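Per the labels' protocols, 500 ng of total RNA from each of 9 samples was amplified into biotin-labelled cRNA. BeadStudio and limma are named in the submitters' processing notes, without versions. The authors deposited linear intensity values for 47323 probes. Array medians were 98.5 to 99.5, so the values were taken as already normalized, though the sources used here name no method. Left out were 18 columns whose names match no single sample. Groups were taken from sample titles.

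Intensities were background-corrected (limma 3.58.1 in R 4.3.3, normexp, saddle-point fit, offset 50) and log2-transformed, leaving out 3 probes with a missing value. Background was the mode plus 1.645 SD of the lower side. Probes above it on at least 3 of 9 arrays were kept, and each gene was read by its brightest such probe. Of 30113 probes with 1 symbol, 30074 were found in RefSeq. limma was fitted to 12422 genes on all 9 arrays (6 residual degrees of freedom, 3 two-sided contrasts, Benjamini-Hochberg over all genes, threshold 0.05), after a test on simulated data. The number of arrays limits the precision. Pairing of RAI2 with RAI2-4A by replicate number was read from the data (every residual correlation above 0.1), not from the labels. Alternatives covered the background, the filter, normalization, the choice of probe, array weights, the variance model, samples in the fit, a replicate block and left-out arrays.

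The members and gene lists were chosen with earlier results of these data known. Named genes are all members, the 6 wider pathway genes with the smallest unadjusted p among those above background on all arrays of a group, the 5 genes most like each of the 2 members with the widest range of group means, and RAI2.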

Additional observations from a re-analysis of the deposited data

How the results depend on the processing

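The count of members past the threshold was 0 of 9 in each comparison and stayed 0 under every alternative run but one: when RAI2 and RAI2-4A alone were fitted with a replicate block, it was 1 for RAI2 against RAI2-4A (IGFBP3, adjusted p = 0.0315). The replicate block over all 9 arrays changed no call of a member or pathway gene. The count of wider pathway genes was 0 in each comparison under all alternatives run. Of 624 recomputed differences, 36 turned sign, none of them past the threshold. IGFBP3's adjusted p ranged from 0.0824 (array weights) to 1.00 (without RAI2 replicate 1) for RAI2 against vector, and from 0.0315 to 0.880 for RAI2 against RAI2-4A. Over all genes, counts past the threshold ranged from 21 to 88 for RAI2 against vector, from 5 to 25 for RAI2-4A against vector and from 30 to 98 for RAI2 against RAI2-4A, around 52, 11 and 47. A block for slides was planned and not run, since the sources used here name none. Probes near background (IGFBP2, IGFBP5, IGF1R, IGF1, IGF2, SOCS1) limit what can be seen of those genes.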
